A study of Mus musculus with 6 samples.

Results

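The carboxylesterases described here are 9 genes of mouse chromosome 8, namely Ces1d, Ces1e, Ces1f, Ces1g, Ces2a, Ces2b, Ces2c, Ces2e and Ces3a. They were chosen by name, as the rows with these symbols among the 21397 genes of the deposited table. Expression was measured by RNA-seq in small intestinal organoids, which are epithelial cultures grown from intestinal crypts, of Fpr2f/f mice. No Cre transgene is named in the labels, and control and treated organoids carried the same floxed allele. The MMK-1 group was cultured for 5 days with 1 μM MMK-1, a synthetic peptide agonist of formyl peptide receptor 2, and the control group with the vehicle, 0.1% DMSO. The treatment label of the MMK-1 libraries gives 1 mM, while their protocol and the study's methods give the micromolar dose used here. There were 3 libraries in each group, and by the study's methods a sample contains organoids of 3 mice. The labels do not say whether libraries of a group came from separate cultures, and the study's general statement on independent experiments does not name these libraries, so the p-values measure the spread between them, which may be technical.

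Carboxylesterases are serine hydrolases of the endoplasmic reticulum that split ester and amide bonds. They activate or inactivate many drugs, and several of them also hydrolyze triacylglycerol, diacylglycerol and cholesteryl esters. In mammals the Ces1 subfamily is best known from liver and the Ces2 subfamily from the small intestine, where absorptive enterocytes express it. Rodents carry many copies of each subfamily in tandem, so sequencing reads of one copy can resemble those of another.

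The library totals, computed from the FPKM values (the fragments on a gene divided by its length and by the size of the library), lay between 37381850 and 37537463 fragments in the controls and between 35512739 and 37143595 with MMK-1. MMK-1 replicate 3 stood apart from the other libraries of its group. A chi-square divided by its degrees of freedom, for which counting noise alone gives about 1, was 34.5 and 29.5 between it and replicates 1 and 2, 3.46 between those 2, and at most 4.79 between controls. Differences were tested with limma on log2(FPKM + 1) for 10551 genes whose mean FPKM was 1 or more, and the median log2 fold change of these genes was 0.13. Scaling the libraries by their median ratio moved that median to 0.0051, so changes read against the typical gene are slightly larger falls than those printed.

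Because the members are paralogs, their sequences were compared before their levels. In GRCm38 with GENCODE vM21, Ces1d (chr8:93166068-93197838), Ces1e (chr8:93201218-93229619), Ces1f (chr8:93256236-93279747) and Ces1g (chr8:93302369-93337308) lie on the minus strand in a Ces1 cluster of 9 genes that spans 515.6 kb. Ces2a (chr8:104734003-104741634), Ces2b (chr8:104831572-104840093), Ces2c (chr8:104847068-104854483), Ces2e (chr8:104926260-104934672) and Ces3a (chr8:105048601-105058413) lie on the plus strand in a second cluster of 11 genes over 416.1 kb. Coding sequences were 74.6% to 81.5% identical among the Ces1 members, with the closest pair Ces1d and Ces1g. Among the Ces2 members, Ces2b and Ces2c were 92.1% identical, and the other pairs lay between 83.0% and 84.0%. Between subfamilies the identity was 62.3% to 65.9%.

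**Figure D1:**
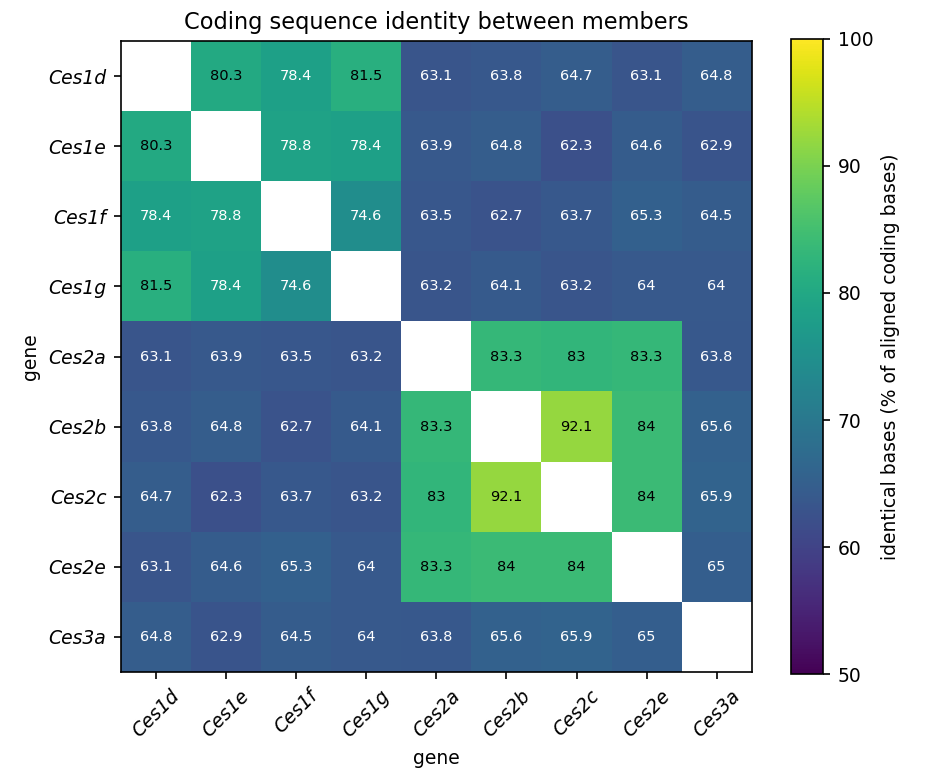
Identity of coding sequences between each pair of the 9 genes, as the percentage of aligned coding bases that are the same (color and number). The Ces1 and Ces2 blocks stand out, and Ces2b with Ces2c reached 92.1%.

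The longest run of identical coding bases between any Ces2 members was 99 bases, in Ces2b and Ces2c. It is shown with 30 bases on each side, beside the same stretch of Ces2a and Ces2e, to show how little sequence separates these genes. The stretches lie in coding exons 8 and 9, on the plus strand at chr8:104852332-104852707 (Ces2c), chr8:104836528-104836897 (Ces2b), chr8:104739339-104739733 (Ces2a) and chr8:104931377-104931968 (Ces2e), with the intron left out. Capitals mark bases that differ from Ces2c.
Ces2c: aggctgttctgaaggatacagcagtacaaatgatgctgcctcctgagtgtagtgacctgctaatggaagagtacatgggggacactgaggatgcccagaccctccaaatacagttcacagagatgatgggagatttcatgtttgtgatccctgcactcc
Ces2b: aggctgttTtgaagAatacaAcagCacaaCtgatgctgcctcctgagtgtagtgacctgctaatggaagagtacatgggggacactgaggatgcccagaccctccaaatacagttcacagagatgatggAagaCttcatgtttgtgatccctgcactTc
Ces2a: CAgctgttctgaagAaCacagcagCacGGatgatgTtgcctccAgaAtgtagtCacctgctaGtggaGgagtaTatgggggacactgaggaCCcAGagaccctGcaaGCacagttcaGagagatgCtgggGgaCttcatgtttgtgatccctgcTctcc
Ces2e: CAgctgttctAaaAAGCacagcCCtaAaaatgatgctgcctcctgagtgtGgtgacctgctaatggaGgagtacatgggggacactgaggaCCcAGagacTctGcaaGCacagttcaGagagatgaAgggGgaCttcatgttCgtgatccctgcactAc
Over these 159 bases, Ces2b differed from Ces2c at 8 positions, and Ces2a and Ces2e each at 26.

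For the Ces1 members, the stretch around the longest run shared by the closest pair, Ces1d and Ces1g, of 57 bases, is shown in the same way. Ces1e and Ces1g shared a longer run, of 74 bases, and Ces1f and Ces1g one of 59. The stretch was chosen for its shared run, while whole coding sequences of these members were only 74.6% to 81.5% identical. It lies in exons 12 to 14 on the minus strand, at chr8:93166403-93171027 (Ces1d), chr8:93303053-93306859 (Ces1g), chr8:93256565-93258264 (Ces1f) and chr8:93201540-93203217 (Ces1e), introns left out. Capitals mark bases that differ from Ces1d.
Ces1d: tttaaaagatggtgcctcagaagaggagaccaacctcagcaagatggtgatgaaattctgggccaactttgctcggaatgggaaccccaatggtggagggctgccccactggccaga
Ces1g: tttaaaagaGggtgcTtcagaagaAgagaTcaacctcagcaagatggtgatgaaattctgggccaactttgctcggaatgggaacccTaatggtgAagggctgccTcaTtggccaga
Ces1f: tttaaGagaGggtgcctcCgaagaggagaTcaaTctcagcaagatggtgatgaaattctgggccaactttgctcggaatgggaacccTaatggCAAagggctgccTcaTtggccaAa
Ces1e: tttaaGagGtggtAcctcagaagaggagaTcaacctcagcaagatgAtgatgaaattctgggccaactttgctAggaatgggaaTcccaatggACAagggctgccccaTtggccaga
Over 117 bases, Ces1g differed from Ces1d at 8 positions, Ces1e at 11 and Ces1f at 12.

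Reads of the study are 150 bases long, and no exact window of that length was shared between any members. Ces2a shared 73 of its 1811 windows (4.03%) with the pseudogene Gm7208. Ces2c shared 61 of 1821 (3.35%) with Ces2d-ps, and Ces3a 45 of 1897 (2.37%) with Ces3b. The other 6 members shared none. With 75-base windows, the shared portion was 25.9% for Ces2c, 18.3% for Ces3a, 14.8% for Ces2a and at most 1.65% for the rest, and Ces2b and Ces2c shared 31 windows with each other. Gm7208, Ces2d-ps and Ces3b are not among the genes used here, and how reads that match several genes were counted is not given in the sources used here. The values of Ces2a, Ces2c and Ces3a, and of Ces2b for shorter matches, are therefore uncertain by reads that a close copy may have given or taken.

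The carboxylesterase transcripts as a whole were lower with MMK-1. Their summed level was 3463 ± 29.5 FPKM (SD, n = 3) in the controls and 1505 ± 60.1 FPKM with MMK-1, or 0.736% and 0.325% of all fragments. The fall was steeper for the Ces1 members, whose sum went from 449.7 ± 3.58 to 62.5 ± 3.72 FPKM, than for the Ces2 members, whose sum went from 3013 ± 26.0 to 1443 ± 56.7 FPKM. Of the 9 members, 6 had a mean FPKM of at least 1 in each group, and all 6 were lower with MMK-1 by the limma fit (Benjamini-Hochberg adjusted p no higher than 0.05), beside 24.7% of all genes tested. Of these 6, 5 were also lower by 2-fold or more with p no higher than 0.05, beside 3.65% of genes tested, and Ces2e was the exception. None was higher by either rule, beside 48.5% and 3.39% of genes. In all 6 the MMK-1 libraries lay below all controls, as in 26.3% of genes, while 50.5% of genes had them above. Ces1g and Ces2b passed the filter on low values only through the controls and are given singly, and Ces3a was below it in every library. For any single gene the smallest p that an exact two-sided permutation test of 3 against 3 libraries can give is 0.1, and that p was obtained for each of the 6.

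**Figure D2:**
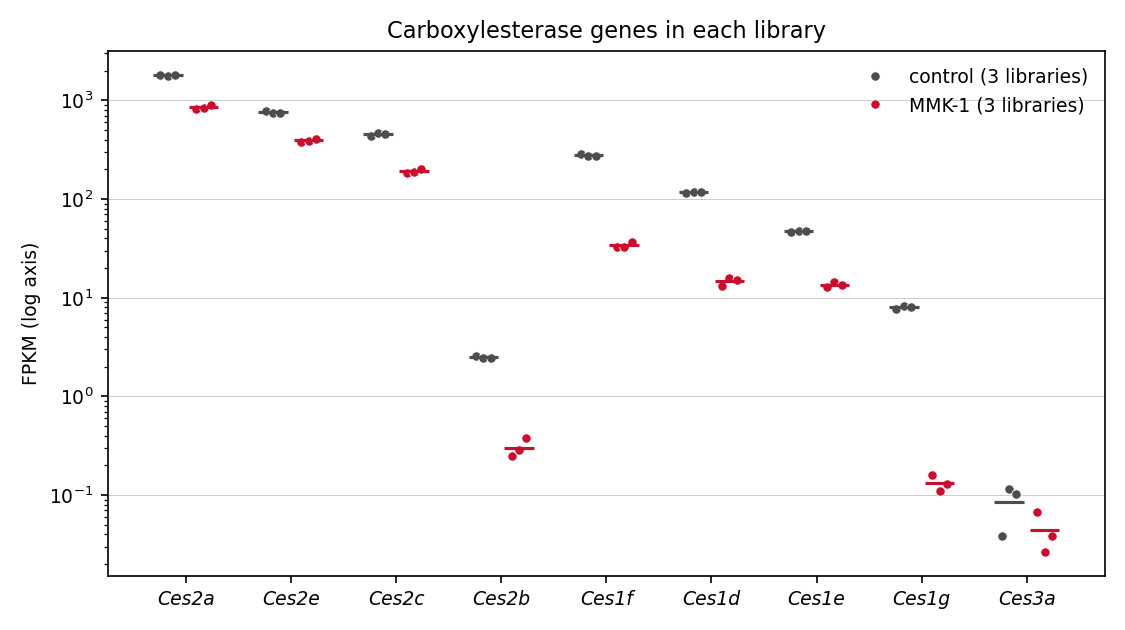
FPKM of each member (log axis) in the 3 control and 3 MMK-1 libraries, with points for libraries and lines for group means. Every MMK-1 library lay below every control library for each gene except Ces3a.

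Ces2a, an intestinal carboxylesterase, was the most abundant member. Its level was 1828, 1771 and 1794 FPKM in control replicates 1, 2 and 3, and 829, 847 and 890.3 FPKM in the MMK-1 libraries. The highest MMK-1 library was replicate 3, and it remained far below the lowest control. Ces2a stood 21st by level among all genes in the controls and 78th with MMK-1. Its log2 fold change was -1.07 (SE 0.0408, limma adjusted p = 8.7e-08), and 47.6% of its control level was left. Leaving out any single library kept this value between -1.10 and -1.05.

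Ces2e, another enzyme of this subfamily, had 777, 751 and 749 FPKM in the controls and 384, 389.8 and 411 FPKM with MMK-1. The groups were well apart, and the ratio of the means was 1.92. The log2 fold change of -0.94 (SE 0.0410, limma adjusted p = 1.8e-07) was just short of the fold threshold, with 52.0% of the control level left. It passed the threshold at -1.02 with upper-quartile scaling, -1.09 with the median ratio and -1.10 with limma-voom on fragments, but not with TPM, at -0.92.

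Ces2c hydrolyzes acylglycerols as well as drugs. It was at 435, 471 and 456 FPKM in the controls and at 182, 191 and 203 FPKM with MMK-1, with no overlap. With a log2 fold change of -1.24 (SE 0.0512, limma adjusted p = 1.4e-07), 42.3% of the control level was left.

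Ces2b, the member closest to Ces2c in coding sequence, was expressed far below it. It had 2.57, 2.47 and 2.46 FPKM in the controls and 0.247, 0.285 and 0.378 FPKM with MMK-1. These values stand for 329, 317 and 314 fragments against 30, 35 and 48. The ratio of scaled fragment counts was 8.21, with a 95% interval of 6.75 to 10.1 that covers counting error only. On the log2(FPKM + 1) scale, which understates the change of low genes, the log2 fold change was -1.43 (SE 0.0519, limma adjusted p = 1.8e-05) in a fit over every gene above 0, which has no filter on level. The log2 ratio of the means was -3.04.

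Ces1f was the most abundant Ces1 member. Mouse Ces1f is known as a triacylglycerol hydrolase of liver. Its level was 283, 273 and 275 FPKM in the controls and 32.3, 32.9 and 37.1 FPKM with MMK-1. The gap between the groups was many times the range within either, and replicate 3 was again the highest MMK-1 library. The log2 fold change was -2.99 (SE 0.0546, limma adjusted p = 1.9e-09). It moved from rank 246 to rank 1936 by level, and only 11 tested genes had a more negative log2 fold change.

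Ces1d, also called triacylglycerol hydrolase, mobilizes stored lipid for lipoprotein assembly. It had 116, 119 and 117 FPKM in the controls and 13.1, 16.0 and 15.0 FPKM with MMK-1. Of the control level 12.5% was left, close to the 12.3% of Ces1f. This was a log2 fold change of -2.92 (SE 0.0652, limma adjusted p = 5.2e-09).

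Ces1e, known as egasyn for its binding of beta-glucuronidase in the endoplasmic reticulum, changed less. It had 46.9, 47.6 and 47.2 FPKM in the controls and 12.8, 14.4 and 13.5 FPKM with MMK-1. The groups did not overlap, and 28.7% of the control level was left. The log2 fold change was -1.73 (SE 0.0477, limma adjusted p = 1.6e-08).

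Ces1g, linked to hepatic lipid balance, had the largest ratio between the groups among the 9 genes. It had 7.77, 8.31 and 8.04 FPKM in the controls and 0.160, 0.109 and 0.129 FPKM with MMK-1. In fragments, these were 666, 714 and 688 against 13, 9 and 11. The ratio of scaled fragment counts was 60.6, with a 95% counting interval of 43.0 to 88.2, and 1.65% of the control level was left. The log2 fold change was -3.0 (SE 0.0504, limma adjusted p = 2.6e-06) in the fit over every gene above 0 with the pseudocount of 1, whereas the log2 ratio of the means was -5.92.

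**Figure D3:**
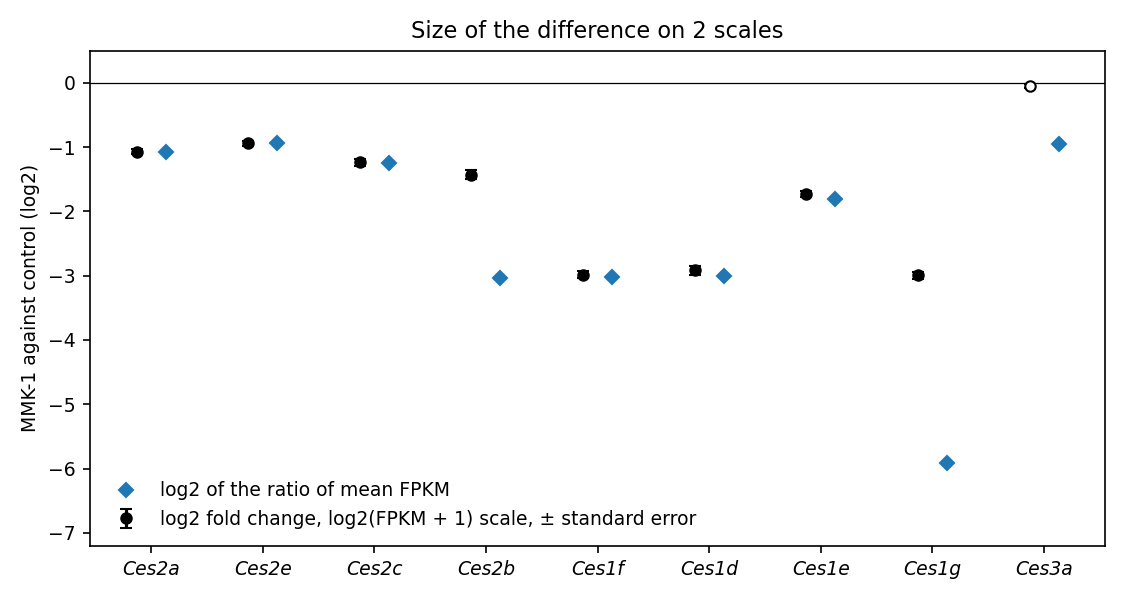
Difference between MMK-1 and control for each member on the log2(FPKM + 1) scale with its standard error (black circles; open for Ces3a, from the fit over every gene above 0) and as the log2 ratio of the mean FPKM (blue diamonds). The scales part for the low genes, at -3.0 against -5.92 for Ces1g and -1.43 against -3.04 for Ces2b.

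Ces3a was near the limit of detection. It had 3, 9 and 8 fragments in the controls and 5, 2 and 3 with MMK-1, and the groups overlapped. The ratio of 1.93 had a 95% counting interval of 0.863 to 4.62, and the exact permutation p was 0.3. In a fit over every gene above 0, the limma adjusted p was 0.220. A difference was not detectable at this depth.

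The mixture of carboxylesterase transcripts differed between the groups. Ces2a made up 51.9% ± 0.438 of the summed FPKM of the 9 genes in the controls and 56.8% ± 0.180 with MMK-1. Ces2e made up 21.9% ± 0.267 and 26.2% ± 0.140. Ces2c held 13.1% ± 0.628 and 12.8% ± 0.211, which is within its spread. The Ces1 members together accounted for 12.99% ± 0.0208 of the sum in the controls and 4.15% ± 0.118 with MMK-1, and Ces1f alone went from 8.0% ± 0.0974 to 2.26% ± 0.0825. These shares are on the FPKM scale, and shares of fragments differ because Ces2e has a longer transcript than Ces2a.

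**Figure D4:**
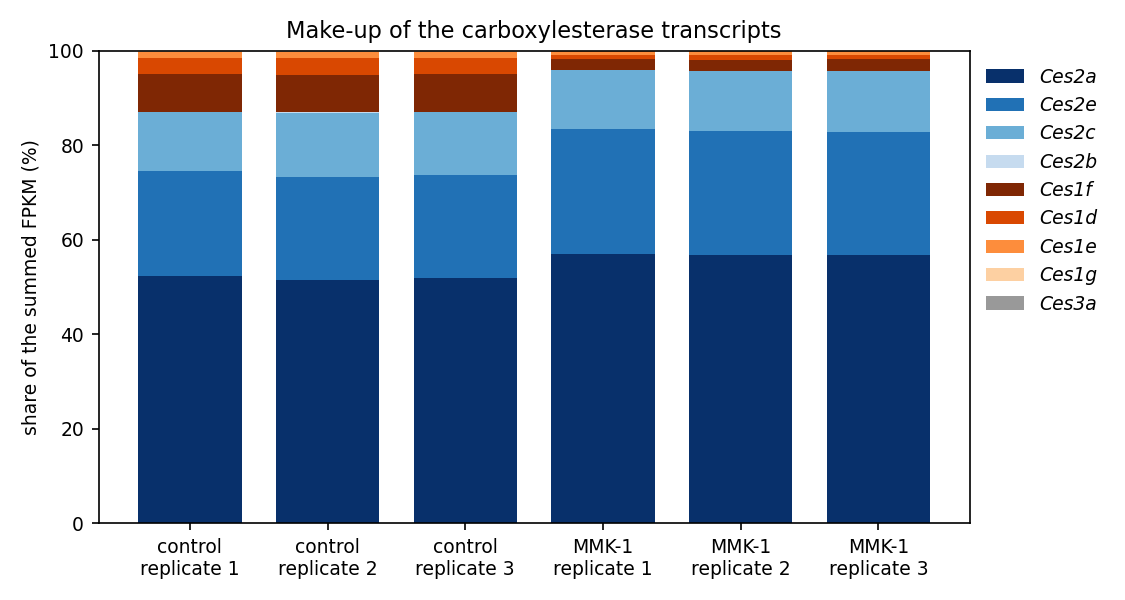
Share of each gene in the summed FPKM of the 9 carboxylesterases (percent) in each of the 6 libraries. The libraries of a group look alike, and the brown and orange Ces1 segments are narrower in all 3 MMK-1 libraries.

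Ratios of 2 genes within a library do not depend on how libraries are scaled. There were 7 such pairs, chosen with the levels known. Those with Ces1g and Ces2b, which were low with MMK-1, are given as values with no test, and the exact permutation p of the others was 0.1, the smallest possible, except where stated. Ces1f stood at 0.155, 0.154 and 0.153 of Ces2a in the controls and at 0.0390, 0.0389 and 0.0416 with MMK-1, a difference of -1.95 (SE 0.0326) on the log2 scale. Every MMK-1 library lay below every control in this ratio. Ces1d kept to Ces1f, at 0.408, 0.437 and 0.428 against 0.406, 0.486 and 0.405, with overlapping groups, a log2 difference of 0.02 (SE 0.0920) and an exact permutation p of 1.0. Ces1e stood at 0.166, 0.175 and 0.172 of Ces1f in the controls and at 0.397, 0.436 and 0.365 with MMK-1, with no overlap. For Ces1g to Ces1f the values were 0.0274, 0.0305 and 0.0293 in the controls and 0.00494, 0.00332 and 0.00349 with MMK-1. The log2 difference was 0.13 (SE 0.0083) for Ces2e to Ces2a and -0.17 (SE 0.0496) for Ces2c to Ces2a. For Ces2b to Ces2c the values were 0.00592, 0.00525 and 0.00539 in the controls and 0.00136, 0.00150 and 0.00186 with MMK-1.

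Of the rest of the family, 3 genes passed the filter on low values, and all 3 were lower with MMK-1. Ces2g went from 55.8 ± 2.56 to 32.5 ± 1.90 FPKM (log2 fold change -0.76, limma adjusted p = 3.5e-06). Ces1b went from 4.55 ± 0.357 to 1.75 ± 0.293 FPKM (log2 fold change -1.02, limma adjusted p = 9.1e-06), so that 38.4% of its control level was left. Ces1c, a secreted plasma esterase, went from 3.73 ± 0.263 to 2.64 ± 0.0467 FPKM, which was the smallest fall of the tested family genes (log2 fold change -0.38, limma adjusted p = 3.7e-04). These 3 were lower under every scaling tried. Ces1a had 1 fragment in the controls and 0 with MMK-1, and Ces2f had 3 against 11. Ces1h was above 0 only in control replicate 2, at 0.0554 FPKM. Counting this as 1 fragment would imply a length of 477 bases, against 1870 annotated exon bases, so its count is uncertain. Ces2h was below the filter, at 132 fragments against 50. Ces3b, Ces4a and Ces5a were not analysed here.

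The changes were set beside the genes that flank the clusters. No tested gene from outside the family lay inside either cluster. On one side of the Ces1 cluster, Aktip and Fto had log2 fold changes of 0.20 and -0.07, and on the other Nudt21 had 0.55. Around the Ces2 cluster the values were 0.41 for Pdp2, 0.11 for Ciao2b, 1.13 for Cbfb and 0.15 for Tradd. None of the neighbors named here fell as far as any tested carboxylesterase, Ces1c included. With median-ratio scaling Ciao2b had a value of -0.03 in place of 0.11.

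RefSeq promoters of GRCm38.p6, from 250 bases before to 50 after the start, were found for 5 of the 9 members (Ces1e, Ces1g, Ces2a, Ces2c and Ces2e). The 250 bases before the start of the 3 Ces2 genes, which fell by similar amounts, are shown to let their upstream sequence be compared. They lie on the plus strand at chr8:104733753-104734002 (Ces2a), chr8:104846818-104847067 (Ces2c) and chr8:104926010-104926259 (Ces2e), and capitals mark runs of at least 10 bases that also occur in another of the 3.
Ces2a: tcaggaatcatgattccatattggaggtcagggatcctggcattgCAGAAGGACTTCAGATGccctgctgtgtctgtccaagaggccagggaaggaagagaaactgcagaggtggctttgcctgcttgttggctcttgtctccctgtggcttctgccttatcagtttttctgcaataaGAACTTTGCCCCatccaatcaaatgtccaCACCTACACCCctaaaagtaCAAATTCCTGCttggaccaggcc
Ces2c: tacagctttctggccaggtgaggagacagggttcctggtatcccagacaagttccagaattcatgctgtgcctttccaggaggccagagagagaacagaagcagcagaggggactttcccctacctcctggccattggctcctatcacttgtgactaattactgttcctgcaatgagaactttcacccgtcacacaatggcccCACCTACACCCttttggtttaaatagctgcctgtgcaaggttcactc
Ces2e: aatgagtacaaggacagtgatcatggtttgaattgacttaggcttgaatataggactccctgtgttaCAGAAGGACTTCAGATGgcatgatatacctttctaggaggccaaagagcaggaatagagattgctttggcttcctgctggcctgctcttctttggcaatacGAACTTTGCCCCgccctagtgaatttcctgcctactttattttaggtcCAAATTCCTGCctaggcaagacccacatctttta
Ces2a and Ces2e were 69.9% identical and shared a run of 17 bases, and the longest run of Ces2a with Ces2c had 11 bases. Between Ces1e and Ces1g the identity was 57.3%. The promoter windows were searched on either strand for AGGTCA, a nuclear receptor half-site, which was found in Ces2a alone and in 16.3% of 32851 promoters. The TATA box TATAAA was found in Ces1g alone, on the strand opposite to the gene, and in 13.6% of promoters. The RefSeq start of Ces1g lies inside the GENCODE gene, which reaches chr8:93337308. Part of its window (chr8:93337160-93337459), with the TATAAA match, therefore lies within that gene. The HNF4 motif CAAAGTCCA, held by 0.475% of promoters, and the HNF1 half-palindrome GTTAAT, held by 7.10%, were in none of the 5. A match describes letters only, and no match says only that these letters are not in the window.

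Transcription factors named in connection with carboxylesterase control were mixed. Of 14 tested, 6 were lower (24.7% of all genes tested were), 1 was higher (48.5% of all genes) and 7 were not called, with a median log2 fold change of -0.10 beside 0.13 for all genes. With median-ratio scaling 8 were lower and 0 higher. The largest changes were in Nr1i3, the xenobiotic receptor CAR, at 69.1 ± 2.12 against 23.5 ± 0.821 FPKM (log2 fold change -1.51, limma adjusted p = 2.0e-08), and in Ppara, a fatty acid receptor, at 10.1 ± 0.190 against 5.45 ± 0.383 FPKM (log2 fold change -0.78, limma adjusted p = 3.0e-06).

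Enzymes with functions near those of the carboxylesterases included called genes in either direction, and among all genes tested 24.7% were called lower and 48.5% higher by the same rule. Of 12 other xenobiotic hydrolases tested, 8 were lower (10 with median-ratio scaling) and 2 higher, with a median of -0.42. Of the higher genes, Ache passed the filter only through the MMK-1 group. Among them Ephx2, soluble epoxide hydrolase, went from 111.9 ± 0.285 to 26.0 ± 1.54 FPKM (log2 fold change -2.06, limma adjusted p = 6.1e-09) and Cmbl, which activates ester prodrugs, from 36.4 ± 0.669 to 15.9 ± 1.05 FPKM (-1.15, limma adjusted p = 2.2e-07). Of 14 neutral lipid hydrolases, 9 were lower and 4 higher, with a median of -0.37, and 10 and 2 with median-ratio scaling. Among those counted, Dagla (higher) passed the filter only through the MMK-1 group and Abhd6 (lower) only through the controls. Abhd12, a lysophospholipid lipase, had a log2 fold change of -1.19 (limma adjusted p = 7.7e-08) and Lipe, hormone-sensitive lipase, one of -1.01 (limma adjusted p = 2.2e-07). Of 12 genes of acylglycerol and cholesteryl ester synthesis, 7 were lower (9 with median-ratio scaling) and 3 higher, with a median of -0.67. Mogat2, which re-esterifies absorbed monoacylglycerol, went from 222 ± 1.20 to 83.8 ± 3.96 FPKM (log2 fold change -1.40, limma adjusted p = 2.9e-08), whereas Lpin1, a phosphatidate phosphatase, went up from 1.35 ± 0.0935 to 4.48 ± 0.0521 FPKM (limma adjusted p = 2.0e-07).

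**Figure D5:**
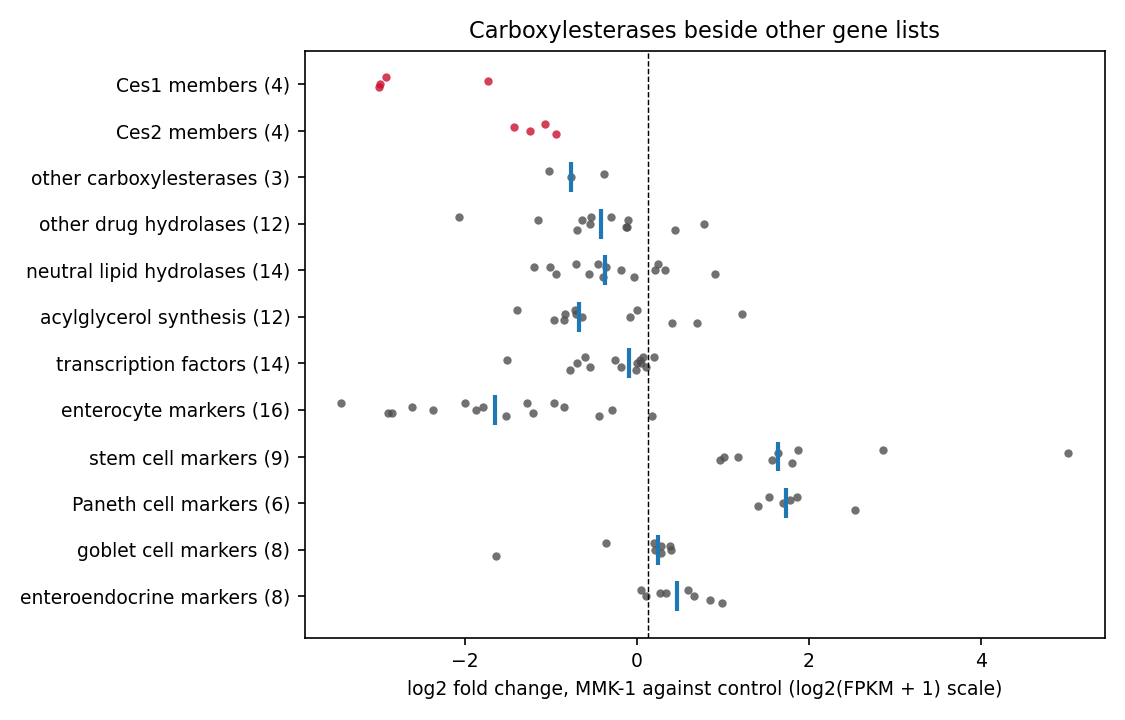
Log2 fold changes on the log2(FPKM + 1) scale for tested genes of each list (points; number tested in brackets), with blue bars at list medians other than for the members and a dashed line at 0.13, the median of all genes. On this scale Ces1 members apart from Ces1e lie near -3, Ces2 members between -1.43 and -0.94, and enterocyte markers around a median of -1.65. The scale understates Ces1g and Ces2b, which passed the filter only through the controls and had log2 ratios of means of -5.92 and -3.04.

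Markers of absorptive enterocytes moved with the carboxylesterases. Of 16 enterocyte markers, 15 were lower, beside 24.7% of all genes, and 1, Fabp1, was higher by 0.17 (0.03 with median-ratio scaling, not called). Their median log2 fold change was -1.65, and their summed level lay between 10880 and 10950 FPKM in the controls and between 5804 and 6250 FPKM with MMK-1. None was at 0 in either group. The log2 fold changes of those that were lower ran from -3.44 for the peptide transporter Slc15a1 to -0.29 for Apoa4, with -0.85 for the disaccharidase Sis and -0.96 for the alkaline phosphatase Alpi. All 9 tested stem cell markers and all 6 tested Paneth cell markers were higher, beside 48.5% of all genes, with summed levels of 79.0 to 81.8 against 421 to 449 FPKM and of 391 to 434 against 1275 to 1403 FPKM. In bulk organoids fewer enterocytes and less carboxylesterase RNA per enterocyte cannot be told apart, and the part of cell composition in these changes was not tested. Ces1 genes are best known from liver. Of 9 hepatocyte markers in the table, 7 were below 1 FPKM in both groups, Alb among them. Ttr was lower with MMK-1, at 21.95 ± 0.969 against 12.2 ± 0.909 FPKM (log2 fold change -0.80, limma adjusted p = 4.7e-06), and Cps1, which enterocytes also express, was higher, at 158.7 ± 1.5 against 261.9 ± 4.79 FPKM (limma adjusted p = 3.7e-07). Their part in the result was not tested.

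Genes closest in pattern to Ces2a and Ces1g were found from the Euclidean distance of log2(FPKM + 1) values centered over the 6 libraries, in which the group difference dominates. For Ces2a these were Pde9a (distance 0.0481), Gucy2c (0.0482), which encodes the guanylin receptor, and Npc1l1 (0.0498), the intestinal cholesterol importer. Gucy2c went from 137.8 ± 1.25 to 65.4 ± 3.64 FPKM, and Npc1l1 from 244 ± 1.85 to 114.6 ± 4.41 FPKM. For Ces1g, whose distance rests on a scale that the pseudocount compresses at low levels, they were Slc23a1 (0.125), a vitamin C transporter, Aldh1a1 (0.141), a retinal dehydrogenase, and Ace (0.186), a brush-border peptidase. Aldh1a1 had 435 ± 7.84 FPKM in the controls and 52.7 ± 1.77 FPKM with MMK-1, a smaller ratio of means than the 60.5 of Ces1g.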

How the data were processed

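RNA-seq libraries of 3 control and 3 MMK-1 organoid samples were grouped by their titles. The authors deposited FPKM values per gene. The submitters' processing notes name HISAT2, HTSeq, R 3.2.0, DESeq2 and mm10; their settings, the annotation and the treatment of reads that match several genes are not given in the sources used here. FPKM values were whole multiples of a step, and fragments came out whole (tolerance 0.01) for 21300 of 21397 genes (99.55%). Intervals from them cover counting error only.

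Tests used limma 3.58.1 (trend) in R 4.3.3 on log2(FPKM + 1), two-sided, over genes whose mean FPKM was 1 or more, with Benjamini-Hochberg adjustment over all 10551. Calls required a 2-fold change with p no higher than 0.05, or an adjusted p no higher than 0.05. The planned count test could not be the main test of FPKM values. Exact permutation tests, alignments (Biopython 1.88) and plots used Python 3.11.15. The fits and the recovery of fragments were tested on simulated data. Members, lists and ratios were chosen with earlier results of these data known. Genes named were the members, other carboxylesterases, the 2 largest called changes of each pathway list, the 3 genes nearest in pattern to Ces2a and to Ces1g, and 2 tested neighbors on each side of a cluster, of which 1 is not reported here. Other named genes (enterocyte and hepatocyte markers) were picked from marker lists after their values were seen. GENCODE vM21 (GRCm38) gave positions, transcripts and exact shared windows, and RefSeq (GRCm38.p6) gave promoters. No protein sequences were used. Alternatives covered scaling, the filter, the pseudocount, TPM, limma-voom on fragments, limma without trend, a replicate block, each library left out, shares of fragments and shorter windows. The genes of the formyl peptide receptor family were not analysed here.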

Additional observations from a re-analysis of the deposited data

How the results depend on the processing

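For each of the 6 members with a mean FPKM of at least 1 in each group, the log2 fold change kept its direction and its adjusted p of at most 0.05 in all 16 alternatives, and Ces3a stayed uncalled where it could be fitted. Leaving out a library kept Ces2e between -0.97 and -0.92 and Ces2c between -1.28 and -1.20. Over all genes it gave 366 to 399 lower and 329 to 426 higher by 2-fold (385 and 358 with every library), and 2347 to 2960 lower and 4735 to 5143 higher by adjusted p (2606 and 5118). By 2-fold, limma-voom called 633 genes lower, median-ratio scaling 484 lower and 228 higher, a mean FPKM of at least 5 gave 215 higher, a pseudocount of 0.1 gave 676 higher, TPM 630 higher, and every gene above 0 with a pseudocount of 0.1, added after seeing the data, 818 lower and 1097 higher. By adjusted p, median-ratio scaling gave 3830 lower and 3777 higher. The cause of these shifts was not tested. As shares of fragments, Ces2a held 47.97% in the controls and 51.73% with MMK-1, Ces2e 27.85% and 32.82%, and Ces1f 7.207% and 2.009%. With shorter windows, 2 members (75 bases) and 8 members (50 bases) shared sequence with another member, against 0 at 150. Same-numbered libraries did not pair (correlations of deviations from -0.04 to 0.0279), and a replicate block left Ces2e at -0.94 and called 385 genes lower and 359 higher by 2-fold, and 2543 and 5024 by adjusted p. Depth limits Ces3a, with 20 fragments over the controls and 10 over the MMK-1 libraries.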
